A study of Homo sapiens with 6 samples.

Results

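The genes described here are the 8 members of the plasminogen activation system PLAU, PLAUR, PLAT, SERPINB2, SERPINE2, SERPINI1, S100A10 and ANXA2, taken by gene name from a table of 60671 genes. Each name matched exactly 1 row, and all 8 were among the 14377 genes tested. U87, an established human glioblastoma cell line labelled WHO grade IV, was treated for 48 h with 100 μM rutaecarpine, an alkaloid of Evodia rutaecarpa that activates the aryl hydrocarbon receptor (rutaecarpine group, n = 3), or with solvent alone (control group, n = 3). Both groups received 0.1% DMSO in serum-free medium. The study asked which migration-related genes respond to rutaecarpine, and RNA-Seq was the readout for these libraries.

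Plasminogen is a circulating zymogen that is cut to plasmin, a protease of broad specificity that degrades fibrin and matrix proteins and releases growth factors. Urokinase (PLAU) and tissue-type plasminogen activator (PLAT) make the cut, and the urokinase receptor (PLAUR) holds urokinase at the cell surface. Serpins are suicide inhibitors of proteases, and SERPINB2, SERPINE2 and SERPINI1 inhibit plasminogen activators. S100A10 and annexin A2 (ANXA2) form a surface complex that binds plasminogen and tissue-type activator. In glioblastoma, plasminogen activation at the surface of tumor cells is a known part of invasion.

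Values are TPM, which are scaled for transcript length and for the total of the library, and can be compared between genes. The libraries summed to between 990889 and 995734 TPM, and TPM do not keep read numbers, so depth is unknown. Control replicate 3 stood apart, with a median log2(TPM + 1) over the tested genes of 3.56 against 3.97 and 3.95 in the other controls and 3.81 to 4.00 in the rutaecarpine libraries. Of the markers of a mesenchymal glioma line, VIM, CD44 and FN1 were high, with a lowest value of 415 TPM (CD44 in control replicate 3). They summed to between 12410.0 and 15110.0 TPM in the control group and between 8581 and 9259 TPM after rutaecarpine. VIM and FN1 were lower in every rutaecarpine library than in any control. CD44 overlapped, with 744, 805 and 415 TPM in the control group and 830, 600 and 837 TPM after rutaecarpine. The astrocyte markers were low, with GFAP at 3.48 to 5.41 TPM, S100B and SOX2 at or below 0.25 TPM, and OLIG2 at 1.48 to 1.73 TPM in the control group and 3.07 to 4.11 TPM after rutaecarpine. Of 5 macrophage and microglia markers, 4 stayed below 1 TPM in every library, and the exception was CSF1R. Their summed level was 7.57 to 8.59 TPM in the control group and 6.42 to 8.11 TPM after rutaecarpine. The 3 endothelial markers summed to at most 2.20 TPM and the 3 epithelial markers to at most 1.72 TPM in any library. Whether the shifts in VIM, FN1 and OLIG2 bear on the genes below was not tested.

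Among the 8 genes, SERPINB2 and PLAUR rose and S100A10 and ANXA2 fell after rutaecarpine, while PLAU, PLAT, SERPINE2 and SERPINI1 did not pass the test. A gene was called where limma on log2(TPM + 1) gave a p, adjusted over all tested genes by Benjamini-Hochberg (BH), at or below 0.05. Called genes with a log2 fold change beyond 1 in either direction are termed DEGs. Of all tested genes, 9.29% were called (4.60% higher and 4.68% lower after rutaecarpine) and 3.51% were DEGs (2.01% higher and 1.50% lower), against 4 and 2 of the 8 genes. SERPINB2 was the DEG that rose and S100A10 the DEG that fell. For 5 of the 8 genes the groups had no overlap (2 higher and 3 lower after rutaecarpine), against 33.3% of all tested genes (19.3% higher and 14.0% lower). The median log2 fold change was -0.20 over the 8 genes and 0.08 over all tested genes. With 3 libraries in each group, the exact permutation test of 1 gene cannot give a p below 0.1, so the calls depend on limma, which shares its estimate of the spread across genes.

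**Figure D1:**
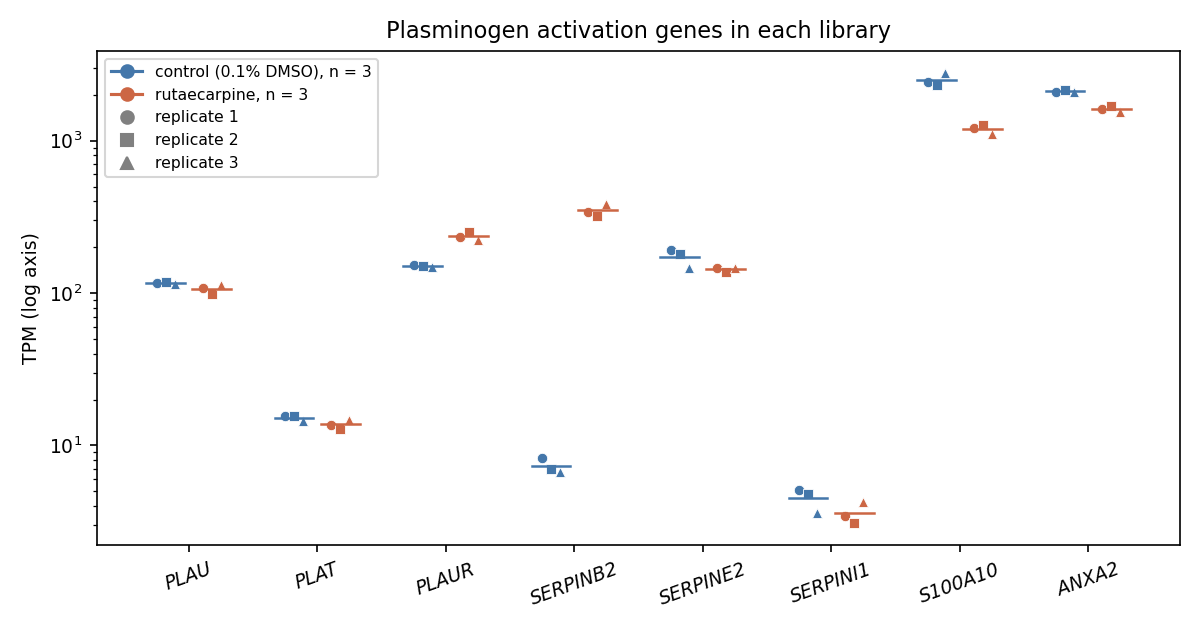
TPM (log axis) of the 8 plasminogen activation genes in each library. Points are libraries (circle, square and triangle for replicates 1, 2 and 3) and lines are group means. SERPINB2 lay between 6.69 and 8.22 TPM in the control group and between 323 and 381 TPM after rutaecarpine, and S100A10 and PLAUR had groups that did not overlap.

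Of the activators, PLAU (ENSG00000122861) encodes urokinase and lies on chromosome 10 from 73909177 to 73917497 on GRCh38 (plus strand, GENCODE release 29). PLAU had 116, 118 and 114 TPM in control replicates 1 to 3 and 107, 98.1 and 112 TPM in rutaecarpine replicates 1 to 3. All 3 rutaecarpine libraries lay below all 3 controls, by a small margin. The log2 fold change of -0.14 (95% interval -0.33 to 0.06) had a BH-adjusted limma p of 0.364.

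PLAT (ENSG00000104368), which encodes tissue-type activator, lies on chromosome 8 from 42175233 to 42207724 (minus strand). Its level was 15.6, 15.6 and 14.6 TPM in the control group and 13.5, 12.9 and 14.8 TPM after rutaecarpine. The groups overlapped, since rutaecarpine replicate 3 lay above control replicate 3. The log2 fold change was -0.14 (95% interval -0.43 to 0.14, limma, BH-adjusted p = 0.513). In each library, PLAT was the lower of the 2 activators. The ratio of PLAT to PLAU was 0.131 ± 0.00356 without and 0.130 ± 0.00321 with rutaecarpine (SD, n = 3 each), with a difference of -0.02 on the log2 scale (exact permutation p = 0.5, two-sided).

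PLAUR (ENSG00000011422) encodes the urokinase receptor, which is anchored to the membrane by a lipid. The gene lies on chromosome 19 from 43646095 to 43670547 (minus strand), with 7 exons in its reference transcript. PLAUR had 153, 149.6 and 148 TPM in the control group and 233, 252 and 222 TPM after rutaecarpine. The controls were close together and every rutaecarpine library lay well above them. The mean TPM was 1.57 times that of the control group, with a log2 fold change of 0.64 (SE 0.08, limma, BH-adjusted p = 0.00386). The call was lost with the libraries centred on their medians, where the log2 fold change was 0.55 and the BH-adjusted limma p 0.0745.

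The receptor was also higher relative to its ligand. The ratio of PLAUR to PLAU was 1.32, 1.27 and 1.29 in the control group and 2.17, 2.57 and 1.98 after rutaecarpine. The groups did not overlap, and the difference of 0.78 on the log2 scale had an exact permutation p of 0.1 (two-sided), the smallest that 3 against 3 allows. A ratio within a library does not depend on how that library was scaled.

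Among the serpins, SERPINB2 (ENSG00000197632) changed most. It encodes plasminogen activator inhibitor type 2, an inhibitor of urokinase that is largely kept inside the cell and is induced by inflammatory signals in macrophages and other cells. The gene lies on chromosome 18 from 63871692 to 63903890 (plus strand). SERPINB2 had 8.22, 7.01 and 6.69 TPM in the control group and 341, 323 and 381 TPM after rutaecarpine. Every rutaecarpine library was far above every control. The mean rose from 7.31 ± 0.807 (SD, n = 3) to 348 ± 29.8 (SD, n = 3) TPM, a ratio of 47.7. The log2 fold change of 5.40 (SE 0.11, limma, BH-adjusted p = 2.76e-06) ranked 1 of the 14377 tested genes. By mean TPM, SERPINB2 moved from rank 9309 to rank 372 among the tested genes. In bulk libraries, more cells with the transcript and more transcript per cell cannot be told apart. SERPINB2 is also a macrophage gene. Of the 5 macrophage markers, PTPRC was at or below 0.03 TPM, AIF1 was listed at 0 and CD14 was at or below 0.54 TPM in all libraries, while CSF1R had 5.98 to 8.33 TPM. ITGAM was listed at 0 in the 3 controls and had 0, 0.27 and 0.54 TPM in rutaecarpine replicates 1 to 3. The part of such cells in the SERPINB2 result was not tested.

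SERPINE2 (ENSG00000135919) encodes protease nexin-1, a secreted inhibitor of thrombin, urokinase and plasmin. It lies on chromosome 2 from 223975112 to 224039319 (minus strand). Its level was 192, 179.9 and 145 TPM in the control group and 145, 137 and 147 TPM after rutaecarpine. The groups overlapped through control replicate 3, the library that stood apart. The log2 fold change was -0.26 (95% interval -0.53 to 0.01, limma, BH-adjusted p = 0.222). Without control replicate 3 it was -0.38 and passed the test, with a BH-adjusted limma p of 0.00838. With library weights, which count a library that stands apart for less, it passed with a BH-adjusted limma p of 0.00416.

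SERPINI1 (ENSG00000163536) encodes neuroserpin, an inhibitor of tissue-type activator known mainly from neurons, and lies on chromosome 3 from 167735243 to 167825568 (plus strand). It was the lowest of the 8 genes. SERPINI1 had 5.09, 4.80 and 3.60 TPM in the control group and 3.43, 3.11 and 4.23 TPM after rutaecarpine. Again control replicate 3 lay within the range of the rutaecarpine libraries. The log2 fold change of -0.26 (95% interval -0.71 to 0.19) had a BH-adjusted limma p of 0.452.

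Relative to the sum of these 3 serpins, urokinase transcripts were lower in every rutaecarpine library than in any control. The ratio of PLAU to the sum of SERPINB2, SERPINE2 and SERPINI1 was 0.565, 0.616 and 0.734 in the control group and 0.219, 0.212 and 0.211 after rutaecarpine. The rutaecarpine libraries were nearly equal and all lay below the controls. The difference was -1.57 on the log2 scale (exact permutation p = 0.1, two-sided, the smallest possible). Of the 3 serpins, only SERPINB2 had a positive log2 fold change (5.40, against -0.26 for SERPINE2 and -0.26 for SERPINI1). The rise of the sum thus came from SERPINB2, and a ratio without SERPINB2 was not tested. The values are ratios of transcripts, and protein or protease activity was not measured in these libraries.

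**Figure D2:**
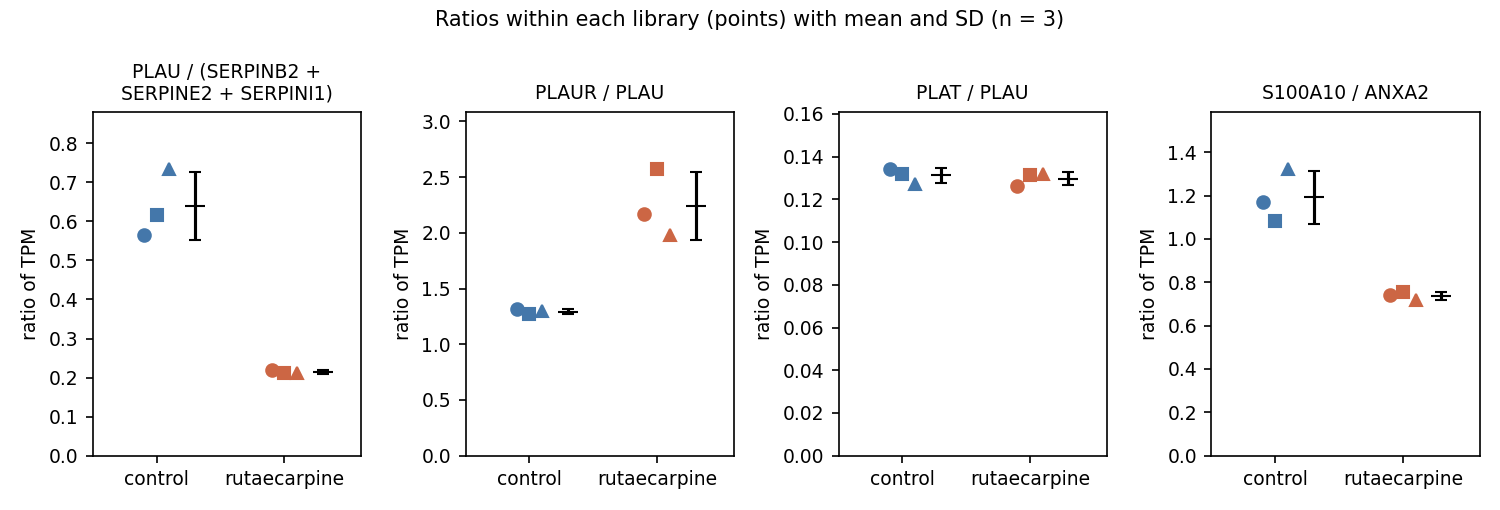
Ratios of TPM within each library for PLAU over the sum of SERPINB2, SERPINE2 and SERPINI1, PLAUR over PLAU, PLAT over PLAU, and S100A10 over ANXA2. Points are libraries and bars are the mean and SD (n = 3). The groups did not overlap in 3 of the 4 panels, and the PLAT to PLAU ratio was 0.131 in the control group and 0.130 after rutaecarpine.

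S100A10 and ANXA2, which encode the light and heavy chains of the plasminogen-binding annexin complex, were the most abundant of the 8 genes. S100A10 (ENSG00000197747) lies on chromosome 1 from 151982915 to 151994390 (minus strand). It had 2420.2, 2330.3 and 2769 TPM in the control group and 1205, 1263 and 1098 TPM after rutaecarpine. The groups were far apart, and control replicate 3 was the highest library. The mean after rutaecarpine was 0.474 times that of the control group, and the log2 fold change was -1.07 (SE 0.10, limma, BH-adjusted p = 0.00122). Without control replicate 3 this was -1.0 (limma, BH-adjusted p = 0.000198). By mean TPM, S100A10 went from rank 50 to rank 121 among the tested genes.

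ANXA2 (ENSG00000182718) lies on chromosome 15 from 60347134 to 60402883 (minus strand). Its level was 2072, 2149.8 and 2093 TPM in the control group and 1623, 1677 and 1531 TPM after rutaecarpine. Neither group spread widely and they did not overlap. ANXA2 had a log2 fold change of -0.39 (SE 0.07, limma, BH-adjusted p = 0.0181). This call was lost in 9 of 13 alternatives, which gave log2 fold changes of -0.48 to -0.35, among them leaving out any single library other than control replicate 3. It was kept without control replicate 3 (log2 fold change -0.39, limma, BH-adjusted p = 0.00579). The processed pseudogenes ANXA2P1, ANXA2P2 and ANXA2P3, whose sequence is close to that of ANXA2, were at or below 0.14 TPM in every library.

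S100A10 fell further than its partner. The ratio of S100A10 to ANXA2 was 1.17, 1.08 and 1.32 in the control group and 0.743, 0.753 and 0.717 after rutaecarpine. The light chain was thus the higher of the pair in every control library and the lower in every rutaecarpine library. The difference was -0.69 on the log2 scale (exact permutation p = 0.1, two-sided, the smallest possible).

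Short sequences near the starts and in the 3′ UTRs of the genes are shown because they are the places where motifs for inducible transcription and for mRNA turnover are usually looked for. RefSeq promoters on GRCh38.p14, from 250 bases before to 50 bases after the start, were at hand for 7 of the 8 genes (9 promoters). They were searched on both strands for the AP-1 letters TGANTCA, the CRE letters TGACGTCA, the NF-kappaB motif and the dioxin response element (DRE) letters TNGCGTG. The NF-kappaB motif was searched only in a strict form, with nearly all of its bases fixed. AP-1 letters were found in the promoters of SERPINB2, PLAUR and ANXA2. The other motifs, in the forms searched, were found in none of the 9. Whether looser forms of the NF-kappaB motif occur in these promoters was not tested. Of 35116 promoters in the table, 7.71% held the AP-1 letters, 1.85% the CRE letters, 0.558% the NF-kappaB motif and 5.51% the DRE letters. The windows are written 5′ to 3′ along the gene, with the motif in capitals, and lie at chr18:63887593-63887620 (plus strand) for SERPINB2, chr19:43670338-43670365 (minus strand) for PLAUR and chr15:60398096-60398123 (minus strand) for ANXA2.
SERPINB2 promoter: agtaaaatgtTGAATCActcaaaggaca
PLAUR promoter: cacaactccaTGAGTCAgggccgagcca
ANXA2 promoter: cgggccggggTGAGTCAcccctgacttg
The first base of the motif lay at position -102 from the start for SERPINB2, -186 for PLAUR and -127 for ANXA2. SERPINB2 and PLAUR rose after rutaecarpine and ANXA2 fell, so the 3 genes with these letters did not share a direction.

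In the 3′ UTR of the GENCODE release 29 reference transcripts, the AU-rich nonamer TTATTTATT was found once in SERPINB2 and once in PLAUR, and in no other of the 8 genes. Such AU-rich elements are known as marks of short-lived mRNAs. The windows lie at chr18:63903573-63903599 (plus strand) and chr19:43648602-43648628 (minus strand) on GRCh38, with the nonamer in capitals.
SERPINB2 3′ UTR: tttactttgTTATTTATTattttatat
PLAUR 3′ UTR: atattcataTTATTTATTttatactta
Among tested genes with a 3′ UTR of similar length (within 10%), 3.09% of 615 held the nonamer for SERPINB2 and 2.46% of 487 for PLAUR. The SERPINB2 3′ UTR of 574 bases also held 4 copies of the pentamer ATTTA, a number that 6.67% of the UTRs of similar length reached. PLAUR held 1 copy and S100A10 none, while PLAU, PLAT, SERPINE2, SERPINI1 and ANXA2 held 2 each. The number of copies thus did not follow the direction of change. SERPINB2 and PLAUR were also the 2 genes called higher after rutaecarpine, which is a match of letters and says nothing of mRNA stability in these cells.

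SERPINB2 is part of a cluster of 10 SERPINB genes on chromosome 18, of which 4 were expressed enough to be tested and 2 were called. Among all tested genes 9.29% were called. The 2 called genes of the cluster were SERPINB2 itself and SERPINB4. SERPINB4 was tested only through the rutaecarpine group, so the count is not read as a result on the cluster. SERPINB4, which encodes an inhibitor of chymotrypsin-like proteases, rose from 0.90, 0.67 and 1.06 TPM to 4.17, 5.33 and 6.23 TPM. Its log2 fold change was 1.73 (limma, BH-adjusted p = 0.00284). Reads of SERPINB4 and its near-identical neighbour SERPINB3 may have been divided between them, and SERPINB3 was at or below 0.52 TPM. SERPINB7, upstream of SERPINB2, had 9.65, 10.4 and 8.20 TPM in the control group and 10.96, 9.79 and 9.85 TPM after rutaecarpine. SERPINB10, which overlaps the end of SERPINB2, was not tested, with 0.04, 0 and 0 TPM in the control group and 0.17, 0.19 and 0.18 TPM after rutaecarpine. Its low values thus moved in the direction of SERPINB2, with groups that did not overlap, and reads from the overlap may belong to either gene. SERPINB8 had 41.5, 38.9 and 24.8 TPM in the control group and 52.5, 52.2 and 55.5 TPM after rutaecarpine, a log2 fold change of 0.63 with a BH-adjusted limma p of 0.0960. It passed the test without control replicate 3, with a log2 fold change of 0.40 and a BH-adjusted limma p of 0.0128.

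**Figure D3:**
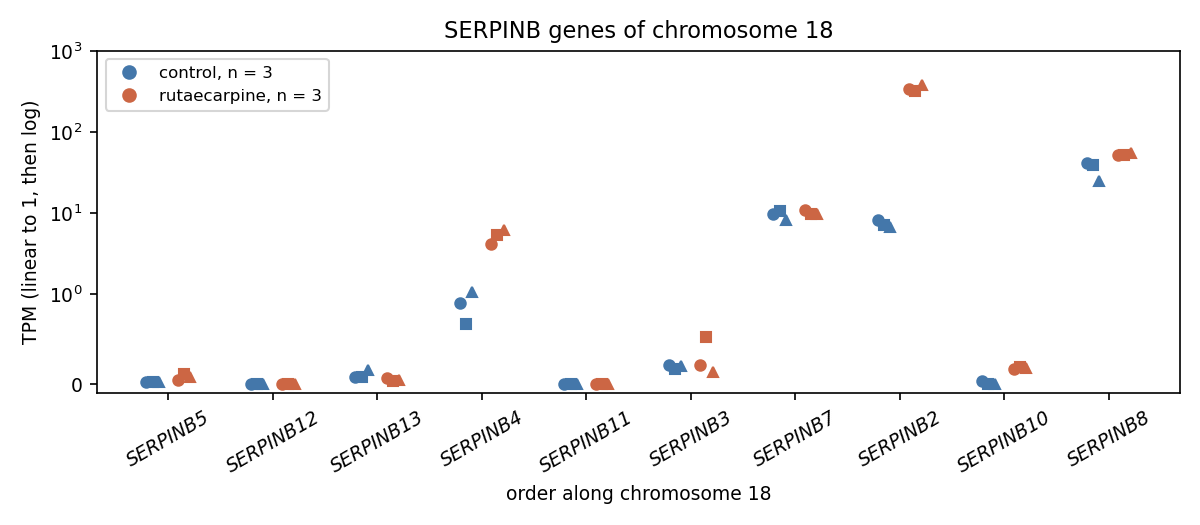
TPM (linear up to 1, then logarithmic) of the 10 SERPINB genes of chromosome 18, in the order in which they lie along the chromosome. Points are the 3 libraries of each group. SERPINB2 and SERPINB4 had rutaecarpine libraries far above the controls, SERPINB7 did not, and SERPINB12 and SERPINB11 were listed at 0.

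Of the 16 protein-coding genes that lie next to the 8 genes on either side, 11 were tested and 1 was called. The share called over all tested genes was 9.29%. PDCD10, which encodes a protein of the STRIPAK complex linked to cerebral cavernous malformations, lies head to head with SERPINI1, with 304 bp between them. PDCD10 had 52.3, 49.4 and 48.0 TPM in the control group and 72.6, 74.3 and 77.9 TPM after rutaecarpine. Its log2 fold change of 0.58 (SE 0.08, limma, BH-adjusted p = 0.00728) was upward, where that of SERPINI1 was -0.26 and not called. The PDCD10 call was lost in 3 of 13 alternatives, among them the fit without rutaecarpine replicate 3. C10orf55, which overlaps PLAU on the opposite strand, was at or below 0.75 TPM. Whether strand was used in counting is not given in the sources used here.

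Of the 32 other serpins in the table, 13 were tested and 3 were called as DEGs, SERPIND1, SERPINB4 and SERPINA9. DEGs made up 3.51% of all tested genes, and DEGs higher after rutaecarpine 2.01%. SERPINA9 reached 1 TPM in no control library and SERPINB4 in 1, so both were tested only through the group in which they were high, and their shared direction is not read as a result on serpins. SERPIND1, which encodes heparin cofactor II, an inhibitor of thrombin, rose from 1.40 ± 0.200 (SD, n = 3) to 7.03 ± 0.167 (SD, n = 3) TPM. SERPINA9, known from germinal-center B cells, was at 0.06, 0.07 and 0.05 TPM in the control group and 1.25, 1.75 and 1.35 TPM after rutaecarpine. Abundant serpins that did not pass were SERPINH1, the collagen chaperone, at 184 ± 14.5 TPM without and 160.3 ± 0.962 TPM with rutaecarpine, and the intracellular inhibitors SERPINB6 and SERPINB1. SERPINB6 had 60.1 ± 2.37 and 68.7 ± 1.44 TPM and SERPINB1 had 10.55 ± 0.681 and 14.7 ± 1.30 TPM (SD, n = 3 each). For both, every rutaecarpine library lay above every control. SERPINB1 passed without control replicate 3 (log2 fold change 0.49, limma, BH-adjusted p = 0.0319). It also passed with library weights (0.51, limma, BH-adjusted p = 0.00751). SERPINB6 passed with library weights only (0.22, limma, BH-adjusted p = 0.0215), and SERPINH1 passed in no alternative.

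Of 29 other annexin and S100 genes, 16 were tested, 4 were called, all lower after rutaecarpine. Over all tested genes, 9.29% were called and 4.68% were called lower. The median log2 fold change of the 16 was -0.10. S100A3, a short gene of the same family as S100A10, was the DEG among them, with 44.8, 39.9 and 53.1 TPM in the control group and 15.5, 20.2 and 18.2 TPM after rutaecarpine. S100A3 changed by -1.31 on the log2 scale (limma, BH-adjusted p = 0.00290). ANXA1, which encodes an anti-inflammatory annexin, fell from 831 ± 23.8 to 535 ± 16.1 TPM (SD, n = 3 each). ANXA6 and ANXA11 had log2 fold changes of -0.41 and -0.51 (limma, BH-adjusted p = 0.0257 and 0.0393). Their calls were lost in 8 and 9 of 13 alternatives, in both cases with centring, with the replicate block and without any single library other than control replicate 3. The abundant ANXA5 and S100A11 did not pass, with 643 ± 44.1 and 607 ± 19.3 TPM for ANXA5 and 1317 ± 157 and 1271 ± 42.4 TPM for S100A11 (SD, n = 3 each). S100A6, the highest of the family, had 8620.0, 9075 and 11482 TPM in the control group and 6658, 7808 and 6941 TPM after rutaecarpine, with a BH-adjusted limma p of 0.0916. Without control replicate 3, S100A6 passed the test (log2 fold change -0.31, limma, BH-adjusted p = 0.0393).

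**Figure D4:**
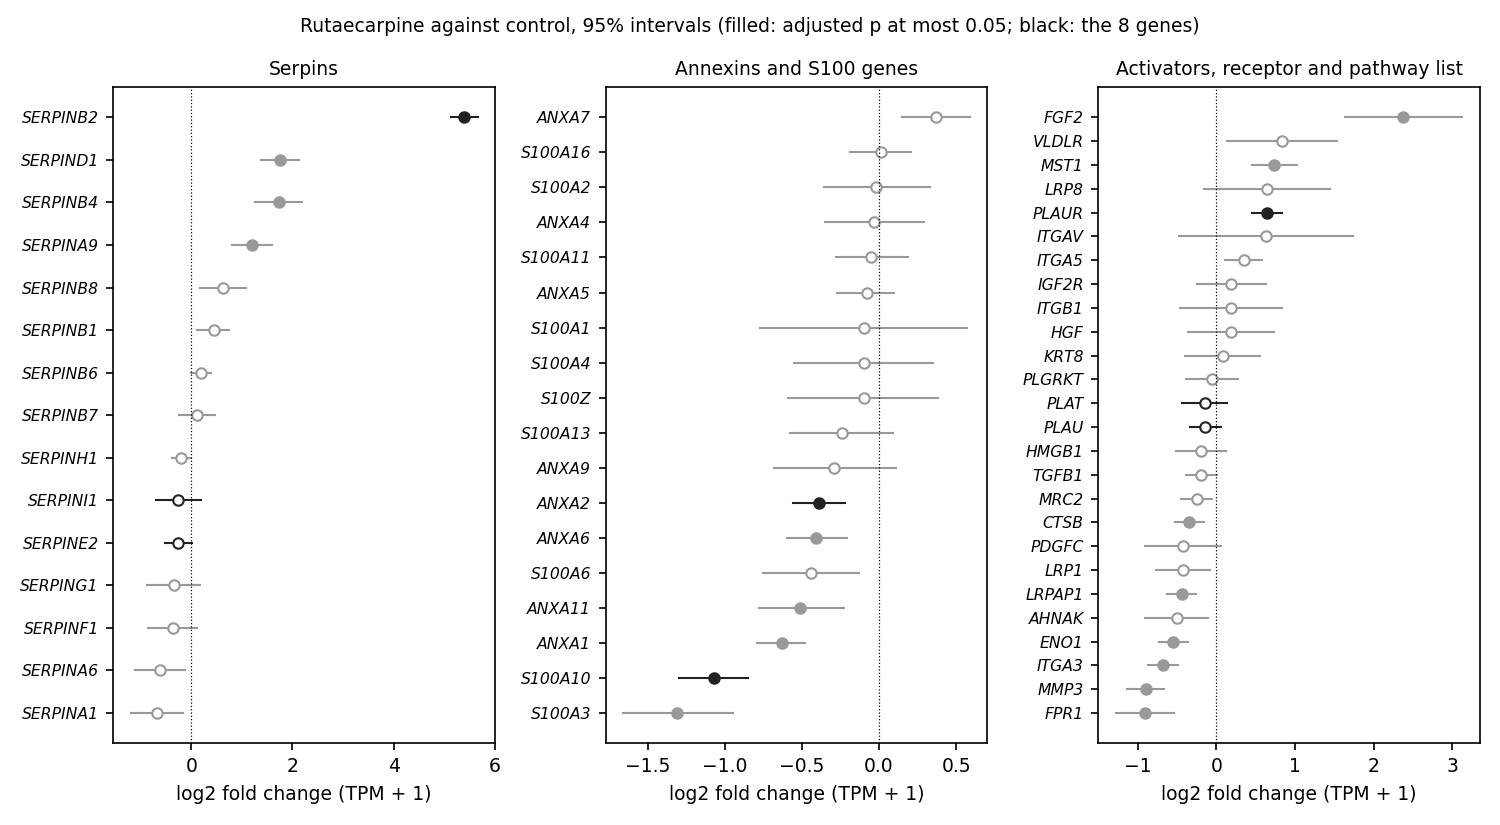
Log2 fold changes of tested genes, rutaecarpine against control, on the log2(TPM + 1) scale with 95% intervals from limma, for serpins, annexins and S100 genes, and the activators and receptor with the other pathway genes (serpins of that list are in the left panel). Filled points were called and black marks the 8 genes. SERPINB2 at 5.40 lay far from the other serpins, whose highest value was 1.75, and S100A10 at -1.07 was the lowest of its panel after S100A3 at -1.31.

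Of 42 further genes of plasminogen activation, 25 were tested and 8 were called, 2 higher and 6 lower. The shares over all tested genes were 9.29% called, 4.60% higher and 4.68% lower. Their median log2 fold change was -0.19. Plasminogen itself (PLG) was at or below 0.27 TPM, and the other proteases of the list apart from cathepsin B were below 1 TPM. CTSB, which encodes cathepsin B, an activator of pro-urokinase, had 1285 ± 43.9 TPM without and 1010.0 ± 68.0 TPM with rutaecarpine (SD, n = 3 each, limma, BH-adjusted p = 0.0375). This call was lost in 10 of 13 alternatives, among them leaving out any single library other than control replicate 3. Of the plasminogen-binding surface proteins, ENO1, the glycolytic enzyme enolase, fell from 3699 ± 58.6 to 2532 ± 158 TPM (SD, n = 3 each, limma, BH-adjusted p = 0.00651). Its call was lost with centring (0.0975) and with the replicate number as a block (0.0672), both BH-adjusted limma p values. The plasminogen receptor PLGRKT had 23.4 ± 3.25 and 22.55 ± 2.02 TPM in the control and rutaecarpine groups (SD, n = 3 each).

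Of the 9 listed partners of the urokinase receptor, 7 were tested and 2 were called, both lower, where PLAUR rose. Lower calls made up 4.68% of all tested genes. ITGA3, an integrin chain that binds laminins, had 727, 717 and 735 TPM in the control group and 492, 416 and 455 TPM after rutaecarpine. It fell by 0.68 on the log2 scale (limma, BH-adjusted p = 0.00369). FPR1, a formyl peptide receptor, fell from 44.4, 38.3 and 53.6 TPM to 23.8, 20.45 and 26.3 TPM (limma, BH-adjusted p = 0.0139). The FPR1 call was lost without control replicate 1 and without rutaecarpine replicate 1 or 2, where the BH-adjusted limma p was 0.0520, 0.0629 and 0.0630. ITGA5 had 517, 565 and 531 TPM in the control group and 727, 732 and 597 TPM after rutaecarpine, with a BH-adjusted limma p of 0.0818. ITGB1 had 651, 636 and 309.6 TPM in the control group and 585, 547 and 592 TPM after rutaecarpine. Of the clearance receptors and their helpers, 1 was called, LRPAP1, a chaperone of the receptor LRP1 that clears complexes of urokinase and serpins, with a log2 fold change of -0.44 (limma, BH-adjusted p = 0.0149). Its call was lost in 7 of 13 alternatives, among them the fits without control replicate 2 and without each rutaecarpine replicate. LRP1 itself did not pass, at 302 ± 47.4 TPM without and 224 ± 27.6 TPM with rutaecarpine (SD, n = 3 each). VLDLR, another receptor of that family, did not pass either, with 34.0, 35.0 and 15.4 TPM in the control group and 52.0, 43.8 and 49.3 TPM after rutaecarpine (limma, BH-adjusted p = 0.139), although its groups did not overlap.

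Among proteins that plasmin or its activators cut or release, FGF2 was the DEG, with 33.5, 32.0 and 14.05 TPM in the control group and 129, 118 and 156 TPM after rutaecarpine. Its log2 fold change of 2.38 had a BH-adjusted limma p of 0.00533. MST1, which encodes macrophage-stimulating protein, rose from 14.05 ± 0.845 to 24.2 ± 1.96 TPM (SD, n = 3 each, limma, BH-adjusted p = 0.0112). That call was lost with the replicate block and without rutaecarpine replicate 2 or 3, where the BH-adjusted limma p was 0.0944, 0.0586 and 0.0768. MMP3, the stromelysin that plasmin activates, fell from 446, 429 and 363 TPM to 208, 236 and 217 TPM, a log2 fold change of -0.90 (limma, BH-adjusted p = 0.00284). The calls of ITGA3, FGF2 and MMP3 were kept in all 13 alternatives.

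The genes most like SERPINB2 across the 6 libraries, by Pearson's r of log2(TPM + 1), were RIPK4, GGT4P, TFPI2, IL1B and IL24, with r from 0.9992 to 0.9996. With groups this far apart, r mostly reflects the difference between groups, and the points share their libraries. TFPI2 encodes a Kunitz-type inhibitor of plasmin and other serine proteases. It had 806, 779 and 677 TPM in the control group and 4512, 4337 and 4770.4 TPM after rutaecarpine, a log2 fold change of 2.59 (SE 0.09, limma, BH-adjusted p = 3.4e-05). The mean TPM was 6.02 times that of the control group. IL1B, an inflammatory cytokine, had 204, 213 and 173 TPM in the control group and 6308, 6786 and 6914 TPM after rutaecarpine. IL24 had 2.38, 2.72 and 2.08 TPM and 74.6, 71.7 and 81.1 TPM.

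The genes most like S100A10 were PTTG1, HLA-DMA, STMN1, TUBB4B and TMSB4X, with r from 0.9980 to 0.9985 over the 6 libraries. All 5 had lower values in each rutaecarpine library than in any control, and like S100A10 they were highest in control replicate 3. This shared pattern follows from choosing the genes by r with S100A10 over the same libraries, and is not a separate result. TMSB4X, which encodes the actin-binding thymosin beta 4, had 5377, 5574 and 6911 TPM in the control group and 2175, 2419 and 2040.0 TPM after rutaecarpine. STMN1, which encodes the microtubule regulator stathmin, had 330.2, 338 and 382 TPM and 182, 198 and 172 TPM.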

How the data were processed

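Total RNA of U87 cells was sequenced by the authors on an Illumina NovaSeq, and genes were quantified with RSEM. The deposited values are TPM, 1 column per library, and the submitters' processing notes name the build GRCh38.p13. The aligner, annotation release and filters are not given in the sources used here. Each of the 6 columns had its sample, with 0 columns unmatched. The labels do not say whether replicates were separate cultures, so p values measure the spread between these libraries. Depth is unknown from TPM, and count methods (DESeq2 and edgeR in the processing notes) were not used.

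The scale was log2(TPM + 1). A gene was tested where 3 or more libraries reached 1 TPM, with limma 3.58.1 under R 4.3.3 (empirical Bayes with trend, two-sided, Benjamini-Hochberg (BH) adjustment over 14377 genes), and fold changes understate those of weakly expressed genes. Ratios were tested by exact permutation. Of the 35671 unnamed rows, 35432 were named by Ensembl identifier. The test was tried on simulated data with 14377 genes, in which 96.2% of genes changed by 1.5 and 100% of those changed by 3 on the log2 scale were called, with a mean of 14.6 false calls per set of 200 changed genes. The simulated noise was independent between genes and libraries, and no simulated library stood apart as control replicate 3 did. Genes were changed only above a minimum level in the controls. These rates belong to that setting and were not measured for the real libraries.

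The genes, lists and tests were chosen with earlier results of these data known. Named genes are the 8 genes, list members that were DEGs, up to 6 abundant others per list, neighbours, pseudogenes and the 5 genes most like SERPINB2 and S100A10. PLG, PLGRKT, LRP1, LRPAP1, VLDLR, FPR1, MST1, MMP3, ANXA6, ANXA11, SERPINB3, SERPINB11, SERPINB12, LYPD1 and LYPD6 were named after their values were seen. The values of 1 gene counted in the lists are not reported here. Alternatives were centring, a pseudocount of 0.1, no filter, no trend, library weights, the replicate number as a block and leaving out each library, and, chosen once control replicate 3 had been seen to differ, removal of trends on transcript length and GC content (14267 genes). Tables and figures were made in Python 3.11.15 with pandas 2.3.3, scipy 1.17.1 and matplotlib 3.10.9.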

Additional observations from a re-analysis of the deposited data

How the results depend on the processing

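SERPINB2 and S100A10 kept their direction and their call in all 13 alternatives, with log2 fold changes of 5.30 to 5.56 and -1.17 to -1.0. PLAU, PLAT and SERPINI1 were not called in any of them. With the libraries centred on their medians, 2 of the 8 genes and 2 of the other annexin and S100 genes were called. With library weights the calls were 3962 over all tested genes, 16 in the pathway list, 7 among the other serpins and 7 among the other annexin and S100 genes, and limma without trend gave 2 in the last group. The deviations of same-numbered libraries correlated at 0.116, -0.266 and -0.215, and those of different-numbered libraries at -0.295 to 0.387. Deviations within a group depend on each other, so these values cannot show whether the libraries were paired. The replicate block gave 428 calls over all tested genes, 3 of the 8 genes, 4 in the pathway list and 2 among the other annexin and S100 genes, and the ANXA2 call was lost. With each library left out in turn there were 500 to 2652 calls over all tested genes, 3 to 5 of the 8 genes, 4 to 15 in the pathway list, 2 to 6 among the other serpins and 2 to 6 among the other annexins and S100 genes, and each highest count came without control replicate 3. The PLAT to PLAU difference lay between -0.04 and 0.00 in these fits, with the sign turned at 0.00 without control replicate 1 and without rutaecarpine replicate 1. Uncalled values that turned sign were ITGB1 (-0.11 with library weights and -0.16 without control replicate 3), S100A11 (0.02 and 0.05 in the same fits) and S100A16 (-0.08 with centring, and -0.03, -0.02 and -0.01 without control replicate 1, control replicate 2 and rutaecarpine replicate 2). With each library left out in turn, ITGB1 ranged from -0.16 to 0.37, S100A11 from -0.11 to 0.05 and S100A16 from -0.03 to 0.08. The cause was not tested. Read depth, which TPM do not keep, limits the weakly expressed genes such as SERPINI1.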

Other observations

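The urokinase receptor belongs to the Ly6/uPAR domain family, and 8 further genes of the table were taken because their description names such a domain. Genes of the family described in other words were not looked for. Of the 8 genes taken, 2 were tested and 1 was called, against 9.29% of all tested genes. LYPD1, known from neurons as a modulator of nicotinic receptors, had 5.21, 4.83 and 6.72 TPM in the control group and 1.57, 0.59 and 1.02 TPM after rutaecarpine, which is -1.69 on the log2 scale (SE 0.23, limma, BH-adjusted p = 0.00582). LYPD6 had 2.07, 2.02 and 1.39 TPM in the control group and 1.15, 0.93 and 0.95 TPM with rutaecarpine. It did not pass, at -0.48 on the log2 scale (limma, BH-adjusted p = 0.155). The direction of LYPD1 was thus opposite to that of PLAUR. These genes were looked at after their values were seen.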
